A study of Mus musculus with 6 samples.

Results

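The mitochondrial carriers of the SLC25 family were compared between the kidney cortex of mice lacking the C3a receptor (C3aR-/-) and that of wild-type (WT) mice. The members were all genes on the array named Slc25a followed by a number, together with Ucp1, Ucp2 and Ucp3, without Slc25a20 and Slc25a37, which gave 48 carriers among 36944 named genes. Each gene was read by its brightest probe that was well above background on all 3 arrays of a genotype. By this filter 42 of the 48 carriers were tested, among 20490 genes tested in all, and all 42 were well above background on the 3 arrays of either genotype. The C3aR-/- control group and the WT control group held 3 samples each, taken from renal cortex of male mice on the C57BL/6 background. Per the labels, the control mice entered the study at 8 weeks of age, ate chow with 10% of its calories as fat for 4 weeks, then received vehicle on 3 consecutive days and were killed 20 weeks after induction. Diabetic mice were not analysed here. The labels do not give the construction of the C3aR-/- allele, nor do they state whether the samples came from separate animals, and p-values therefore cover only the spread among these arrays, which may be technical.

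Each array had 59305 transcript spots, of which 56.5% to 59.3% were well above background, and none was saturated. The arrays correlated at 0.992 to 0.996 within a genotype and at 0.985 to 0.990 between genotypes. The array of C3aR-/- replicate 1 had 145 non-uniform spots, against 2 to 8 on the other 5 arrays. The 3 arrays of each genotype were on a slide of their own and were scanned at a time of their own, so genotype, slide and scan cannot be told apart. The probe of C3ar1, which encodes the C3a receptor, gave processed signals of 14.6, 18.6 and 11.1 in C3aR-/- cortex and of 20.9, 9.19 and 14.1 in WT cortex. It exceeded background clearly only on the array of WT replicate 1, and so it does not check the genotype labels. Below, a level is the log2 processed signal relative to the 75th percentile of its array, and a change is the C3aR-/- mean minus the WT mean of such levels. "Changed" means an adjusted p under 0.05 in limma over all 20490 genes.

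SLC25 proteins mostly sit in the inner mitochondrial membrane and pass metabolites, nucleotides and cofactors between the cytosol and the matrix. Most exchange one molecule for another, as the ADP/ATP carriers do when they deliver newly made ATP to the cell, and the uncoupling proteins belong to the same family. Kidney cortex is rich in proximal tubule, whose cells carry many mitochondria and meet the cost of solute reabsorption largely by oxidative metabolism. The carriers of the inner membrane are made in the cytosol and enter it through the TOM complex, the small TIM chaperones and the TIM22 complex.

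Of the 42 tested carriers, 7 changed, 3 with a higher and 4 with a lower brightest probe in C3aR-/- cortex. That is 16.7% of the carriers, against 14.3% of all genes tested, so the share was near the background. Without 1 array, 2, 2 and 1 carriers changed when C3aR-/- replicates 1, 2 and 3 were left out, and 1, 1 and 6 when WT replicates 1, 2 and 3 were. In the background 7.05% of genes were higher and 7.26% lower. With arrays scaled on their median in place of the 75th percentile, 3 carriers were higher and 2 lower, and 1820 genes were higher and 1052 lower, against 1444 higher and 1487 lower in the scaling used here. The 3 arrays of one genotype did not overlap those of the other in 20 of the 42 carriers (47.6%), against 41.3% of all genes. Out of the 42 carriers, 12 were higher and 8 lower without overlap, against 22.2% and 19.1% of all 20490 genes. At an unadjusted p under 0.05, 16 of the 42 carriers passed, against 33.4% of all genes. The median change was 0.06 over the carriers and 0.02 over all genes, and the median size of a change was 0.17 and 0.18. No carrier changed by 1 or more on the log2 scale, a size reached by 524 of the 20490 genes. The carriers ran from -0.48 for Slc25a40 to 0.66 for Slc25a30, 27 with a positive and 15 with a negative difference, and 13 of the 42 differed by less than 0.1. In whole cortex, fewer cells of a type and less RNA per cell cannot be told apart.

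**Figure D1:**
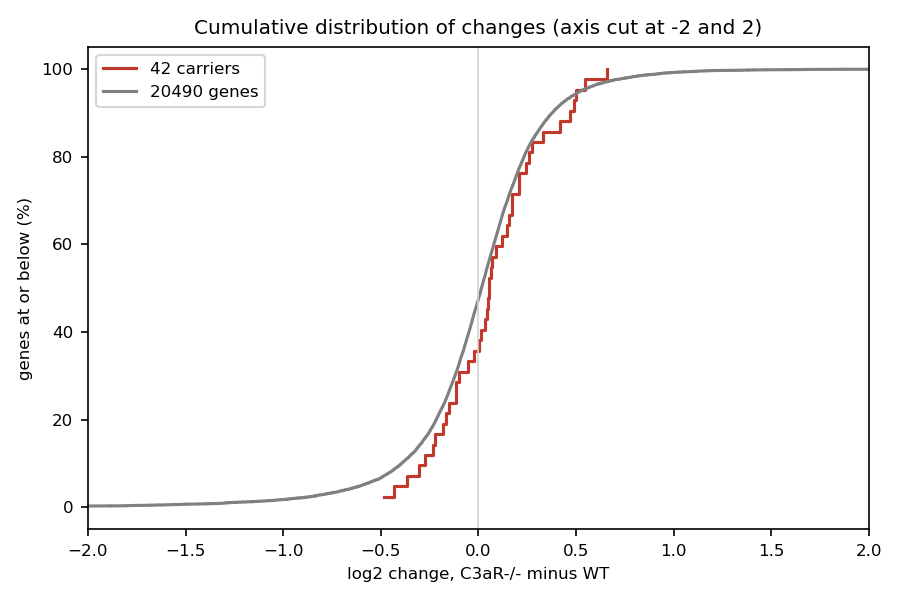
Share of genes (%, vertical axis) with a log2 change, C3aR-/- minus WT, at or below the value on the horizontal axis, for the 42 tested carriers and for all 20490 genes. The carriers lie between -0.48 and 0.66, and their median is 0.06, against 0.02 for all genes.

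Sorted by what they carry, the changed carriers came from 4 of 6 groups. Of the 10 tested amino acid and glutathione carriers 3 were lower and none higher, and of the 10 tested cofactor, nucleotide and metal carriers 2 were higher and none lower. These counts go by the brightest probe and include Slc25a39 and Slc25a42, whose probes disagree; with the mean of the passing probes the groups held 2 lower and 1 higher. Of the 4 tested di- and tricarboxylate carriers 1 was higher, and of the 7 carriers of other or unassigned substrates 1 was lower. None of the 6 ADP/ATP, phosphate and ATP-Mg carriers and none of the 5 uncoupling proteins and relatives changed in limma, with 1 and 3 of them at an unadjusted p under 0.05. The median change of a group ran from -0.16 for the amino acid and glutathione carriers to 0.27 for the uncoupling proteins and relatives.

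**Figure D2:**
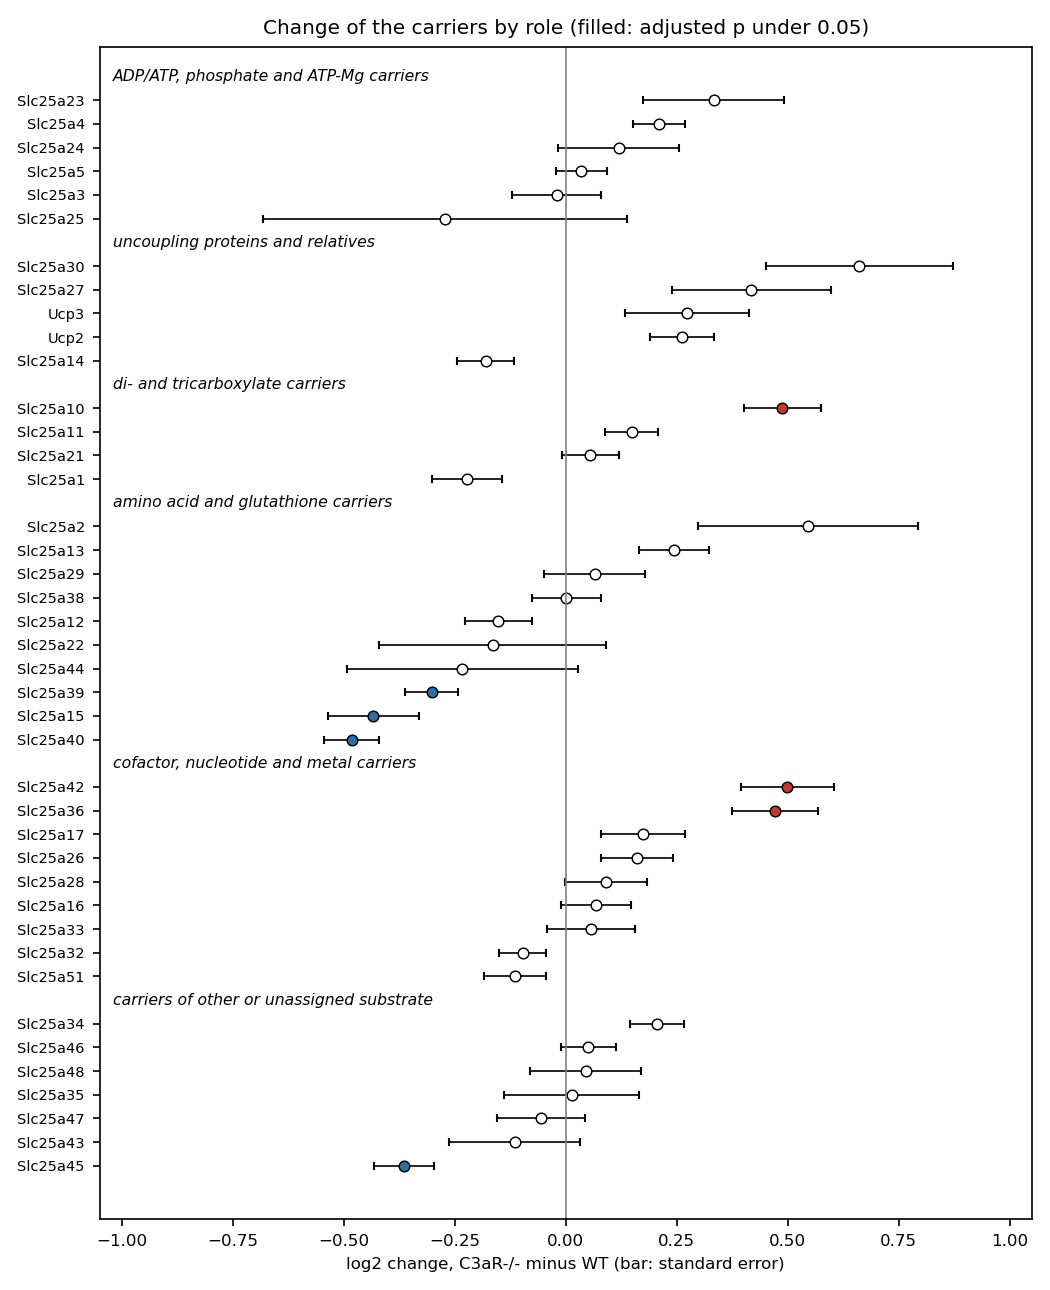
Log2 change (C3aR-/- minus WT, horizontal axis) of the brightest probe of the tested carriers, 1 of the 42 not shown, grouped by what they carry; bars are standard errors from limma and filled points have an adjusted p under 0.05. Of the 7 filled points 3 lie above 0 and 4 below it.

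Among the amino acid and glutathione carriers, Slc25a40 fell. SLC25A40 is a paralog of SLC25A39, which brings glutathione into mitochondria. Its level was -1.41, -1.41 and -1.52 in C3aR-/- cortex, against -1.01, -0.95 and -0.93 in WT cortex. All 3 C3aR-/- samples were below all 3 WT samples, and the samples of each genotype lay close together. The level was 1.40-fold lower, with a change of -0.48 (SE 0.06, limma adjusted p = 0.0113), and the call held with any 1 of the 6 arrays left out (adjusted p = 0.0270 to 0.0487). It rested on 1 passing probe, at chr5:8454558-8454617 of build mm9.

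Slc25a15, the ornithine and citrulline carrier of the urea cycle, also fell. It stood at -0.24, -0.22 and -0.07 in C3aR-/- cortex, against 0.24, 0.42 and 0.10 in WT cortex. All 3 C3aR-/- values were below all 3 WT values. The level was 1.35-fold lower, a change of -0.43 (SE 0.10, limma adjusted p = 0.0433), also from 1 passing probe. Left out in turn, every array but that of WT replicate 3 ended the call, with an adjusted p of up to 0.112. The call was also lost with median scaling (limma adjusted p = 0.0786), normexp background correction (adjusted p = 0.0624) and the authors' deposited table (adjusted p = 0.0501).

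Slc25a39, the glutathione carrier, was lower at its brightest probe, with levels of 6.68, 6.70 and 6.78 in C3aR-/- cortex, against 7.06, 7.02 and 6.99 in WT cortex. The genotypes did not overlap, and the change was -0.30 (SE 0.06, limma adjusted p = 0.0291), or 1.23-fold lower. Its other passing probe differed by 0.14 in the opposite direction, and the gene is given no direction. The call was lost with any 1 of the 6 arrays left out (adjusted p = 0.0588 to 0.0924).

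The remaining 7 tested amino acid carriers did not pass. The largest difference among them was that of Slc25a2, an ornithine carrier, at -4.25, -3.99 and -3.30 in C3aR-/- cortex and -4.36, -4.55 and -4.27 in WT cortex. The C3aR-/- samples lay just above the WT samples and spread more, and the difference of 0.55 (SE 0.25) had an adjusted p of 0.181 in limma. Without C3aR-/- replicate 3 it was 0.27, and with normexp background correction 0.21. Slc25a12 and Slc25a13, the aspartate and glutamate exchangers of the malate-aspartate shuttle, differed by -0.15 (adjusted p = 0.213) and 0.24 (adjusted p = 0.0917). The mean of both Slc25a13 probes differed by 0.07. Slc25a38, which supplies glycine for haem synthesis, differed by 0.0013.

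The dicarboxylate carrier Slc25a10, which exchanges malate or succinate for phosphate, rose. Its level was 0.94, 0.96 and 0.997 in C3aR-/- cortex, against 0.58, 0.55 and 0.31 in WT cortex. All 3 C3aR-/- samples were close together and above the highest WT sample. The level was 1.40-fold higher, a change of 0.49 (SE 0.09, limma adjusted p = 0.0235), from 1 passing probe at chr11:120359439-120359498. The call held without WT replicate 3 but not without any 1 of the other 5 arrays (adjusted p of up to 0.0797). The oxoglutarate and malate carrier Slc25a11 differed by 0.15 (adjusted p = 0.141) and the citrate carrier Slc25a1 by -0.22 (adjusted p = 0.114). A second Slc25a1 probe differed by 0.20, in the opposite direction, and the mean of both by -0.01.

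Among the cofactor and nucleotide carriers, Slc25a36 rose. The human protein carries pyrimidine nucleotides. The brightest probe of Slc25a36 stood at 2.39, 2.47 and 2.50 in C3aR-/- cortex, against 1.92, 1.86 and 2.17 in WT cortex. All C3aR-/- samples were above all WT samples, of which replicate 3 was the highest. The level was 1.39-fold higher, with a change of 0.47 (SE 0.10, limma adjusted p = 0.0308). Its 3 other passing probes differed in the same direction, by 0.33 to 0.44, and none of these 3 passed the test when every probe was fitted. The call was lost without any 1 of the arrays other than WT replicate 3 (adjusted p of up to 0.0995).

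Slc25a42, whose human protein carries coenzyme A, was higher at its brightest probe. This probe gave 4.47, 4.36 and 4.44 in C3aR-/- cortex, against 3.98, 3.72 and 4.07 in WT cortex. The genotypes did not overlap, and the change was 0.50 (SE 0.10, limma adjusted p = 0.0322), or 1.41-fold higher. Its 2 other passing probes, placed by the array files on Ensembl transcripts of the gene, differed by 0.02 and -0.06. Both were far dimmer, with WT means of -2.96 and -5.09, and the second was well above background on only 1 WT array. The gene as a whole is given no direction. The call also depended on every array other than that of WT replicate 3, with an adjusted p of up to 0.1002 without 1 of them.

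The other 8 carriers of cofactors, nucleotides and metals did not pass. They ran from -0.11 for Slc25a51, the NAD carrier, to 0.17 for the peroxisomal carrier Slc25a17. Slc25a26, the S-adenosylmethionine carrier, differed by 0.16 (adjusted p = 0.224) and Slc25a28, a mitochondrial iron importer, by 0.09 (adjusted p = 0.522).

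Among carriers of other or unassigned substrates, Slc25a45 fell. Its brightest probe was at 2.24, 2.24 and 2.23 in C3aR-/- cortex, against 2.70, 2.60 and 2.51 in WT cortex. The 3 C3aR-/- samples were nearly equal and below every WT sample. The level was 1.29-fold lower, with a change of -0.36 (SE 0.07, limma adjusted p = 0.0257). A second probe gave 1.41, 1.51 and 1.52 in C3aR-/- cortex, against 2.13, 2.04 and 1.90 in WT cortex, again without overlap. In the fit of every probe this second one had a change of -0.54 (adjusted p = 0.0196). The call at the brightest probe held without WT replicate 3 and was lost without any 1 of the other arrays (adjusted p of up to 0.0851).

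**Figure D3:**
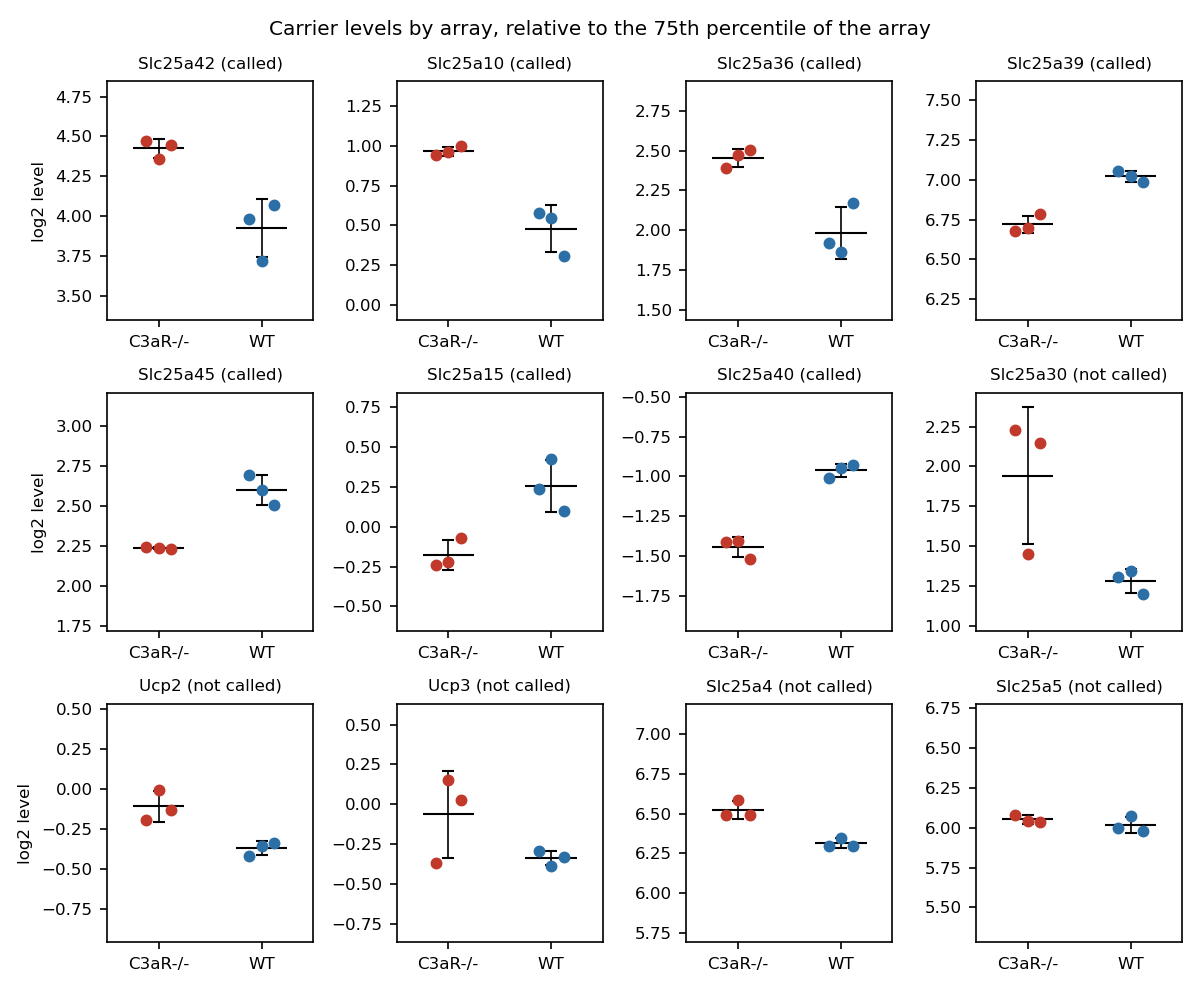
Log2 level relative to the 75th percentile of the array for 12 carriers, C3aR-/- arrays on the left and WT arrays on the right of each panel; points are arrays, and lines and bars are the mean and SD of 3. The vertical axes span the same width in every panel; the genotypes are apart in the 7 panels of changed carriers, while Slc25a5 (0.04) overlaps.

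The ADP/ATP carriers exchange matrix ATP for cytosolic ADP. Slc25a4, the form known from heart and muscle, was at 6.49, 6.59 and 6.49 in C3aR-/- cortex, against 6.29, 6.35 and 6.30 in WT cortex. The genotypes did not overlap, but the difference of 0.21 (SE 0.06) had an adjusted p of 0.0672 in limma. The difference was 0.13 (adjusted p = 0.182) with quantile normalization and 0.06 (adjusted p = 0.533) in the authors' deposited table. A second Slc25a4 probe differed by 0.45 and passed in the fit of every probe (adjusted p = 0.0212), and the mean of both passed as well (0.33, adjusted p = 0.0330). Slc25a5, the widespread form, was at 6.08, 6.04 and 6.03 in C3aR-/- cortex, against 6.00, 6.08 and 5.98 in WT cortex. Its groups overlapped, with a difference of 0.04 (SE 0.06, limma adjusted p = 0.700). Slc25a5 has processed copies in the genome, and whether they add to its probe's signal was not tested. The ATP-Mg and phosphate carriers Slc25a23, Slc25a24 and Slc25a25 differed by 0.33, 0.12 and -0.27 at the brightest probe, none past the threshold. With 1 array left out, Slc25a24 turned to -0.0042 without C3aR-/- replicate 2, and Slc25a25 to 0.16 without WT replicate 3, which was high. Without C3aR-/- replicate 3 another Slc25a23 probe was the brightest, and it differed by -0.12. The 2 other passing probes of Slc25a23 differed by -0.09 and 0.14 on all arrays.

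Of the uncoupling proteins and relatives, none changed at its brightest probe, and 4 of 5 had a positive difference. Ucp2, the widely expressed uncoupling protein, was at -0.19, -0.0035 and -0.13 in C3aR-/- cortex, against -0.42, -0.35 and -0.34 in WT cortex. All 3 C3aR-/- samples were higher, by 0.26 on average (SE 0.07, limma adjusted p = 0.0619), and a second probe, further upstream, was 0.45 higher and passed in the fit of every probe (adjusted p = 0.0368). The mean of both Ucp2 probes differed by 0.36 and passed (adjusted p = 0.0301). Ucp3, best known from skeletal muscle, stood at -0.37, 0.15 and 0.03 in C3aR-/- cortex, against -0.30, -0.39 and -0.33 in WT cortex. C3aR-/- replicate 1 lay among the WT samples, and the difference was 0.27 (SE 0.14, limma adjusted p = 0.225). Without that array it was 0.43 (adjusted p = 0.0391), but without C3aR-/- replicate 2 it was 0.17 (adjusted p = 0.449) and without replicate 3 it was 0.23 (adjusted p = 0.422).

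Slc25a30, a kidney mitochondrial carrier related to the uncoupling proteins, had the largest difference of all 42 carriers and did not pass. Its level was 2.23, 1.45 and 2.15 in C3aR-/- cortex, against 1.31, 1.34 and 1.20 in WT cortex. C3aR-/- replicate 2 lay near the WT samples, with the other two well above them. The difference was 0.66 (SE 0.21, limma adjusted p = 0.0886), and without C3aR-/- replicate 2 it was 0.91 (adjusted p = 0.0155). It was 0.52 (adjusted p = 0.186) without C3aR-/- replicate 1 and 0.56 (adjusted p = 0.216) without replicate 3, and the mean of its probes differed by 0.48 (adjusted p = 0.116). Of its 3 other passing probes, those differing by 0.81 and 0.48 showed no overlap between genotypes, and the second of these passed in the fit of every probe (adjusted p = 0.0495). The last, with a difference of -0.02, was dim and passed the background limit on 2 of the 3 WT arrays.

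Ucp1, the uncoupling protein of brown fat, failed the background limit on all 6 arrays, and no change is given. Of 11 white and brown adipocyte markers, 6 likewise failed it on every array (Adipoq, Adrb3, Cox8b, Elovl3, Plin1 and Retn), and none of the 4 tested changed, none at an unadjusted p under 0.05. Slc25a18, a glutamate carrier, Slc25a31, the testis form of the ADP/ATP carrier, Slc25a41 and Slc25a54 were also below this limit on all arrays. Slc25a53 had 1 probe that passed on 2 of 3 C3aR-/- arrays and on 0 of 3 WT arrays, and another on 1 WT array, so it too was not tested.

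Several carriers were read by more than 1 probe, and these did not always go together. Of the 42 tested carriers, 16 had 1 passing probe and 26 had several. Among the 26, all passing probes had differences of the same sign in 14 and of both signs in 12. When all 82 passing carrier probes were fitted among 30867 probes, 6 were higher and 6 lower, in 11 carriers, against 11.6% of all probes called. The 4 pairs shown here are those of Slc25a3, Slc25a39 and Slc25a21, chosen after their values were seen as pairs on 1 RefSeq transcript whose probes went apart, and of Slc25a45, whose probes went together. Sequences are those of the array files, 5′ to 3′, with the motif AATAAA, the common polyadenylation signal, in capitals where the printed stretch holds it. Probes that the files place across a splice junction are given whole and the others as 30 of their 60 bases. Coordinates are those of the array files for the probe, in build mm9, on the minus strand except for Slc25a45, on the plus strand.
Slc25a3 junction probe, chr10:90580961-90581502: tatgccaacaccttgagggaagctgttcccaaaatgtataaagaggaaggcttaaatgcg
Slc25a3 brightest probe, chr10:90579539-90579598: aacttaatgctaAATAAAcccatctattcc
Slc25a39 junction probe, chr11:102266350-102267022: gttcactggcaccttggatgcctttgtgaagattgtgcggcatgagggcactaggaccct
Slc25a39 brightest probe, chr11:102264539-102264598: cgcctcccgaattcaagaccaaatctgatg
Slc25a21 second probe, chr12:57819248-57819307: atccaaccttggagtttttgagaaaatttg
Slc25a21 brightest probe, chr12:57813812-57813871: ccaaaacattttgaaAATAAAcagtaaaga
Slc25a45 second probe, chr19:5885329-5885388: tgaacaggaggatgacttctgtcttcttca
Slc25a45 brightest probe, chr19:5885708-5885766: acagatacatgaAATAAAgtttcatctgat

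The motif AATAAA, searched on the strand of the probe only, was in 7 of the 42 brightest carrier probes (16.7%), in 7 of all 82 passing carrier probes (8.54%) and in 9.77% of all transcript probes on the array. The motif lies near the 3′ end of most transcripts, and it is given here as a mark of where a probe reads, with no bearing on how the transcript is processed.

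Slc25a3 encodes the phosphate carrier that feeds ATP synthase. Its brightest probe stood at 5.01, 4.82 and 4.66 in C3aR-/- cortex, against 4.90, 4.87 and 4.79 in WT cortex, and the groups overlapped with a difference of -0.02. The junction probe stood at 5.09, 5.16 and 5.12 in C3aR-/- cortex, against 4.76, 3.62 and 4.11 in WT cortex. Here the C3aR-/- samples were close together and above all WT samples, which were spread over more than 1 on the log2 scale. The difference of 0.96 (SE 0.27) did not pass in the fit of every probe (limma adjusted p = 0.0730).

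For Slc25a21, the oxodicarboxylate carrier, the brightest probe differed by 0.06 (limma adjusted p = 0.579), and the mean of its 2 passing probes by -0.21. The second probe stood at -1.72, -1.65 and -1.77 in C3aR-/- cortex, against -1.29, -1.13 and -1.27 in WT cortex. The genotypes were well apart at this probe, and its change of -0.49 passed in the fit of every probe (adjusted p = 0.0186). The junction probe of Slc25a39 gave 2.08, 2.10 and 2.16 in C3aR-/- cortex, against 2.06, 1.98 and 1.88 in WT cortex. Its genotypes also did not overlap, but with C3aR-/- higher, by 0.14 (adjusted p = 0.251 in the fit of every probe).

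**Figure D4:**
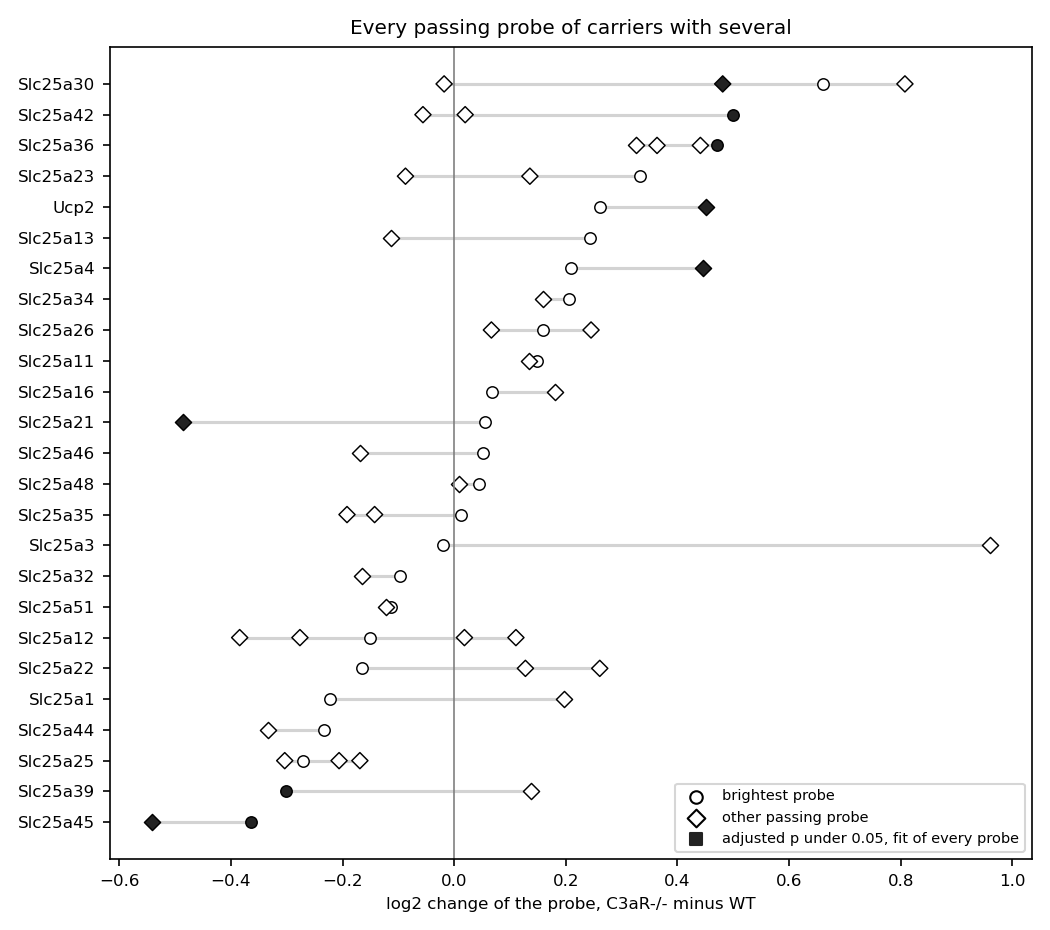
Log2 change (C3aR-/- minus WT, horizontal axis) of every passing probe of the tested carriers with several, 1 of the 26 not shown; circles are the brightest probe, diamonds the others, and filled symbols have an adjusted p under 0.05 in the fit of every probe. In 12 of the 26 carriers the probes lie on both sides of 0, as for Slc25a3 (-0.02 and 0.96) and Slc25a39 (-0.30 and 0.14).

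The level of an upstream probe minus that of the 3′-most probe of the same transcript was taken as a measure of RNA quality and labelling. Over 4135 genes with such a pair, the array medians were -2.37 on all 3 C3aR-/- arrays, against -2.43, -2.45 and -2.48 on the WT arrays, so that the 2 genotypes did not overlap. The median difference was 0.07, and 60.9% of the pairs were higher in C3aR-/- cortex. In the 18 carriers with such a pair the median difference was -0.03, and 8 of the 18 were higher. The highest values were those of Slc25a3 (0.98), Slc25a39 (0.44), Slc25a22 (0.43) and Slc25a1 (0.42), and the lowest those of Slc25a21 (-0.54) and Slc25a30 (-0.33). The part of this shift in the differences between probes was not tested.

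The pair of carriers that the choice of members left out was read the same way. Slc25a20, which carries acylcarnitines, was at 1.03, 0.88 and 0.92 in C3aR-/- cortex, against 0.28, 0.52 and 0.40 in WT cortex, a change of 0.55 without overlap (SE 0.08, limma adjusted p = 0.0168), lost without C3aR-/- replicate 3 (adjusted p = 0.0611) or WT replicate 1 (adjusted p = 0.0502). Slc25a37, an iron importer of red cell precursors, differed by -0.20 (adjusted p = 0.212), and by 0.014 as the mean of its probes.

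Beyond the chosen carriers, 26 other genes of mitochondrial membrane transport were tested, among them Mtch1, Mtch2 and the enzymes Cpt1a and Cpt2. Of these 26, 7 changed at the brightest probe (26.9%, against 14.3% of all genes), 3 higher and 4 lower. The 4 lower include Sfxn5 and Slc8b1, which are given no direction below. With the mean of the passing probes, Sfxn5, Slc8b1 and Vdac3 lost their calls (limma adjusted p = 0.607, 0.0703 and 0.0614). Leaving out 1 array brought the count of changed genes to between 0, without C3aR-/- replicate 3, and 3, without C3aR-/- replicate 1 or 2. Cpt1a and Cpt2, the carnitine palmitoyltransferases that hand fatty acids to and from carnitine on either side of Slc25a20, rose by 0.42 (adjusted p = 0.0242) and 0.53 (adjusted p = 0.0268). Cpt2 stood at 5.76, 5.45 and 5.56 in C3aR-/- cortex, against 4.95, 5.13 and 5.10 in WT cortex, without overlap. The Cpt2 call held without C3aR-/- replicate 1 or 2 and the Cpt1a call without WT replicate 2, and each was lost without any 1 of the other arrays. Sfxn5, a sideroflexin, was lower at its brightest probe (-0.45, adjusted p = 0.0140), while the mean of its probes differed by -0.06 (adjusted p = 0.607). Slc8b1, the mitochondrial sodium and calcium exchanger, was lower at its brightest probe (-0.79, adjusted p = 0.0180). This probe was at -2.78, -3.15 and -3.20 in C3aR-/- cortex, against -2.19, -2.32 and -2.27 in WT cortex, without overlap. Without WT replicate 1, 2 or 3 another Slc8b1 probe was the brightest, and the value read from it was 0.11, -0.025 and 0.029. With normexp the value was 0.015, and with the mean of the passing probes -0.37 (limma adjusted p = 0.0703). Sfxn5 and Slc8b1 are given no direction. The median over the 26 was 0.03.

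None of the 15 tested genes of the import route of the carriers changed in limma. At an unadjusted p under 0.05, 6 of the 15 passed, against 33.4% of all genes. The genotypes did not overlap in 8 of the 15 (53.3%, against 41.3% of all genes), 2 higher and 6 lower. The smallest p-values were those of Tomm7, a small subunit of the TOM complex (0.23, adjusted p = 0.0544), Timm8b, a small TIM chaperone (-0.25, adjusted p = 0.0594), Timm22, the core of the TIM22 complex (-0.22, adjusted p = 0.0748), and Tomm40, the outer membrane channel (-0.21, adjusted p = 0.0795). The median was -0.07, with 11 of the 15 negative, against 9708 of all 20490 genes.

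Of 20 genes taken as a measure of mitochondrial content, 3 changed (15%), near the 14.3% of all genes, and 17 had a positive difference, as did 10782 of all 20490 genes. Their median was 0.14. The genotypes did not overlap in 15 of the 20 (75%, against 41.3% of all genes). Of the 20, 14 were higher without overlap, against 22.2% of all genes, and 1 was lower. Without C3aR-/- replicate 1, 1 of the 20 changed, and without any 1 of the other 5 arrays none did. Atp5a1 and Atp5b, subunits of the catalytic head of ATP synthase, rose by 0.34 (adjusted p = 0.0369) and 0.23 (adjusted p = 0.0415). With quantile normalization they differed by 0.17 (limma adjusted p = 0.105) and 0.12 (adjusted p = 0.170). In the authors' deposited table the differences were 0.13 (adjusted p = 0.155) and 0.14 (adjusted p = 0.226). Nrf1, a transcription factor of nuclear genes for mitochondrial proteins, was lower at its brightest probe (-0.37, adjusted p = 0.0204), while the mean of its probes differed by -0.17 (adjusted p = 0.195). The calls of Atp5a1 and Atp5b were lost without any 1 array (adjusted p of up to 0.1084 and 0.117). The summed level of the list, relative to the 75th percentile on a linear scale, was 1620 to 1679 on the C3aR-/- arrays and 1443 to 1518 on the WT arrays, without overlap. This sum was taken with the 75th percentile scaling only.

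Markers of the cortex and of other cells were read beside these. Of 14 proximal tubule markers 13 had a positive difference and 2 rose, the lactate transporter Slc5a12 by 0.73 (adjusted p = 0.00814) and the glucose transporter Slc5a2 by 0.34 (adjusted p = 0.0335). These 2 are 14.3% of the 14, the same share as over all genes. The genotypes did not overlap in 11 of the 14 (78.6%, against 41.3% of all genes), 11 higher and 0 lower. Slc5a12 kept its call without each array in turn and Slc5a2 lost it without any 1 of them (adjusted p of up to 0.108). Their summed level was 1183 to 1258 on the C3aR-/- arrays and 1010 to 1086 on the WT arrays, again without overlap, and their median change was 0.20. All 14 were well above background on all arrays. The part of proximal tubule content in the differences of the carriers was not tested.

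The counts below stand beside 14.3% of all genes changed, 7.05% higher and 7.26% lower. Of 8 collecting duct markers 3 were higher and 1 lower, and of 7 markers of the thick ascending limb and distal convoluted tubule 1 was higher and 1 lower. Of 5 podocyte markers 1 was higher, and of 6 endothelial markers 1 was higher and 1 lower. Of 7 macrophage markers 1 was lower, and their summed levels overlapped, at 17.6 to 26.1 in C3aR-/- cortex and 22.1 to 25.2 in WT cortex. Of 6 tested B cell and plasma cell markers 3 were lower, and their summed level was 0.852 to 0.970 in C3aR-/- cortex, against 3.18 to 4.41 in WT cortex, with Cd79a below the background limit throughout. Of 6 muscle markers, Mb and Tnnt2 were below that limit throughout, and the 1 tested, Myh7, did not pass (0.27, adjusted p = 0.104). The summed level of the 6 went the other way, at 0.101 to 0.112 in C3aR-/- cortex and 0.127 to 0.258 in WT cortex, without overlap. This sum was taken with no background filter and lies near background, as only Myh7 of the 6 passed the filter. The part of these cells in the carriers' differences was not tested.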

How the data were processed

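Spots were quantified with Agilent Feature Extraction 10.7.1.1 under a 1-colour protocol, per the file headers, and the deposited intensity used is each spot's processed signal, from which background had been subtracted. Per the labels, 0.2 µg of RNA per sample was labelled with Cy3. The authors' deposited table of log2 values had sorted values equal on all 6 arrays to within 0.000903, and it served as an alternative. Here, log2 of the processed intensity minus the 75th percentile of each array's transcript spots was used, without control spots and flagged outliers. Spots of a probe were averaged. Of 56605 probes, 32994 were named through RefSeq accessions of GRCm38.p6, and the others kept the name in the files. Each gene was read by its brightest passing probe and tested with limma 3.58.1 in R 4.3.3, with Benjamini-Hochberg adjustment at 0.05. The fit was tested on simulated data. Replicates with the same number did not deviate together (correlations 0.038, -0.028 and -0.071), so they were not paired. Arrays carry no read depth, and 3 per genotype limit the precision.

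The carriers and gene lists were chosen with earlier results of these data known. The text names every changed carrier, every carrier with a difference of at least 0.5, Ucp1 to Ucp3, Slc25a4, Slc25a5, untested members, and up to 4 genes of each other mitochondrial list by smallest p. 1 carrier is counted but not reported by name here. Other carriers, markers and probes were named after their values were seen. The fit of every probe and the upstream measure were added after the data were seen.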

Additional observations from a re-analysis of the deposited data

How the results depend on the processing

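Against 7 changed carriers and 2931 changed genes, 1 carrier and 936 genes changed with no filter on dim probes, and 0 carriers (14 of 42 at an unadjusted p under 0.05) and 650 genes with the replicate number as a block. Leaving out each array in turn gave 1 to 6 carriers and 665 to 1667 genes. The brightest probe was chosen anew each time, so a gene can be read by another probe. Quantile normalization, median scaling, normexp background correction, a filter on all 6 arrays, the mean of the passing probes, the files' own symbols, the authors' deposited table, and a trend with robust variances gave 5 to 10 carriers and 2327 to 3722 genes. The median change of the carriers ran from 0.02 to 0.11. Slc25a40 kept its call in 15 of 16 settings, lost with the block (adjusted p = 0.0582). Slc25a10, Slc25a36 and Slc25a45 kept theirs in 9, Slc25a42 in 7, and Slc25a15 and Slc25a39 in 6, and none of the 7 reversed. Of the carriers that did not pass, Ucp2 passed with normexp (adjusted p = 0.0484), the mean of its probes and the deposited table (adjusted p = 0.0499), Slc25a4 with the mean of its probes and with the trend (adjusted p = 0.0233), Slc25a13 and Slc25a34 with the trend (adjusted p = 0.0458 and 0.0353), and Ucp3 and Slc25a30 without 1 array. The difference of Slc25a5 was -0.031 (adjusted p = 0.705) in the authors' deposited table, against 0.04; the cause was not tested. Over all settings, the mitochondrial content list held 0 to 9 changed genes, against 3, and the import route 0 to 5, against 0. The other genes of mitochondrial membrane transport held 0 to 8, against 7. Each of the 6 carrier groups held 0 to 4 and each cell type list 0 to 6 changed genes over all settings. Signal near background limits the dim carriers Slc25a2 and Slc25a43.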
